A study of Arabidopsis thaliana with 8 samples.

Results

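Glucosylation of small molecules by UDP-dependent glycosyltransferases (UGTs) was examined in Arabidopsis leaf protoplasts that received a plasmid for DIV1, a MYB-type transcription factor of the DIVARICATA group. The 53 genes considered belong to the UGT71 to UGT91 families, were taken from a list of gene identifiers, and do not include UGT76C1 and UGT76C2. Of these 53 genes, 13 had a row in the authors' deposited table of 2958 called genes, and the other 40 had none. A gene without a row either missed an adjusted p of 0.05 or was not tested, and the table does not separate these cases.

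UGTs move a sugar, usually glucose from UDP-glucose, onto hormones, phenolics and foreign compounds. The conjugate is more soluble, mostly inactive and often kept in the vacuole, and beta-glucosidases can release the free molecule again. In leaves the family is known for storing salicylate, flavonols, hydroxycinnamates and auxin as glucosides or glucose esters, and for removing toxins. Many members lie in tandem rows of related genes, and a short signature near the C-terminus, the PSPG box, holds the UDP-sugar.

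Leaves were cut from the rosettes of Col-0 plants aged 4 weeks, sliced and digested with cellulase and macerozyme for 90 min, so that the measured cells were freed of their walls. Cells took up plasmid with polyethylene glycol, were kept overnight, and their RNA was sequenced. The titles place 4 libraries in div1 and 4 in ev, a name the labels do not expand, and both groups share the Col-0 genotype, the digestion and the transfection. The plasmids, the promoter that drives the introduced gene, the fraction of cells that took it up and any pooling of plants were not given in the sources used here. No label says that the 4 libraries of a group came from separate plants or transfections, so the p-values measure the spread between these libraries, which may be technical.

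The deposited values are means over all 8 libraries, fold changes and their errors, and the depth of each library is unknown. DIV1 itself (AT5G58900) had a log2 change of 7.61 (SE 0.88, adjusted p 1.12e-15) per the authors' deposited table, which sets the sign: positive means higher in div1. The deposited p-values imply 18010 tested genes, of which 16.4% were called at an adjusted p under 0.05, 9.14% higher and 7.28% lower. The members and lists set against these shares below may include untested genes, which can only lower their percentages. The bases are therefore not the same. Markers of mesophyll, guard cell, epidermis and vascular tissue, 5 genes each, had no row, so the labelled cell type could not be checked by level here. In bulk RNA of this kind, a change in the number of cells of a type and a change in RNA per cell cannot be told apart.

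The coding sequences of 2 pairs from tandem rows are shown first, because likeness between copies bears on how far a count belongs to a single gene. AT2G36780 and AT2G36770, which the annotation gives no UGT number, sit next to each other on chromosome 2 and share 91.3% of their coding bases. The stretch of 132 coding bases that encodes the PSPG box differs between them at 1 base, in capitals.
AT2G36780 (higher, log2 fold change 1.07): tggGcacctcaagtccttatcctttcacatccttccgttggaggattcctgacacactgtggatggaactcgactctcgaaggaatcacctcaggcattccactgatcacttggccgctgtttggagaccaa
AT2G36770 (higher, log2 fold change 0.44): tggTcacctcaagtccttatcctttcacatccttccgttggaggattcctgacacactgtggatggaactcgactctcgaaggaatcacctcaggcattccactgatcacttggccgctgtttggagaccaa
The longest run of identical bases between these 2 coding sequences was 211 bases. A read that falls inside such a run cannot be given to either gene by its sequence, and the treatment of such reads was not given in the sources used here. UGT85A2 and UGT85A1, from the row on chromosome 1, are less alike, with 81.3% of coding bases shared, and their PSPG stretches differ at 15 bases, again in capitals.
UGT85A2 (higher, log2 fold change 1.86): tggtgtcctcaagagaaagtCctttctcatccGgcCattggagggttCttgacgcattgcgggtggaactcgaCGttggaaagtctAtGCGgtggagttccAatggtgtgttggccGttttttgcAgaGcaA
UGT85A1 (higher, log2 fold change 1.57): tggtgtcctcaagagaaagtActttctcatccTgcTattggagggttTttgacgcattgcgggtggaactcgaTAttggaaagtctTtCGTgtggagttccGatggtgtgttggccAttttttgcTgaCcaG
Their longest identical run was 29 bases. The 4 fold changes beside these sequences are those of the authors' deposited table.

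Nearly all of the UGT genes that were called rose in div1. Of the 53 members, 12 (22.6%) were called higher, against 9.14% of all tested genes, and 1 (1.89%) was called lower, against 7.28%. Of the calls among all genes, 55.6% were higher. The median log2 change of the 12 higher members was 0.89, and that of all 1646 genes called higher was 0.81, both from the authors' deposited table. At least 2-fold higher were 5 of the 53 members, against 3.47% of all tested genes, and 1 was at least 2-fold lower, against 2.2%. Among the 35 members without a copy at least 85% identical in coding sequence, 5 (14.3%) were higher, and among the 18 with such a copy 7 (38.9%) were. These counts describe the list, which was chosen with earlier results of these data known, and no test was made on it.

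**Figure D1:**
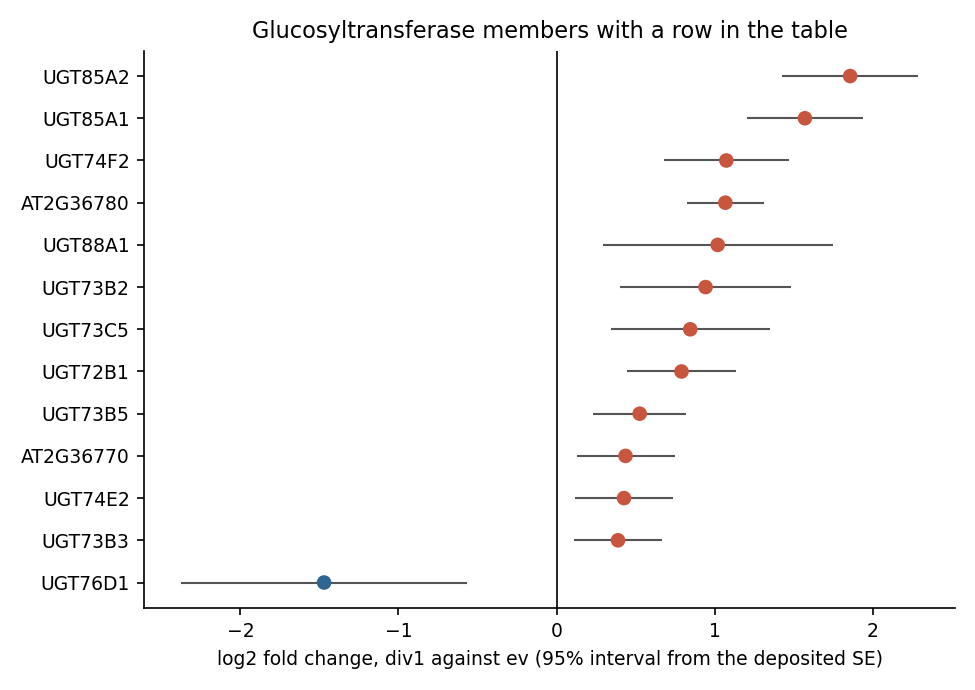
Log2 fold change of each listed member in div1 against ev (x axis), with the 95% interval from the deposited standard error as a line and the value as a point, red for higher and blue for lower. UGT85A2 at 1.86 and UGT85A1 at 1.57 lie farthest to the right, and UGT76D1 at -1.47 lies alone on the left. Only called genes have a row, so no interval drawn here could reach the line of no change. Sizes of calls near the threshold may be overstated.

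The largest fold changes among the members were those of 2 UGT85A enzymes. UGT85A2 (AT1G22360, chromosome 1, 7894807 to 7897761 on the minus strand of TAIR10.1) reached a mean normalized count of 2325 and a log2 change of 1.86 (SE 0.22, adjusted p 2.97e-15) per the authors' deposited table. That corresponds to estimated group means of 1006 in ev and 3645 in div1, or 3.63-fold. UGT85A1 (AT1G22400, chromosome 1, 7903660 to 7906969, minus strand), whose enzyme puts glucose on the oxygen of the cytokinin trans-zeatin, had a log2 change of 1.57 (SE 0.19, adjusted p 4.37e-15) per the authors' deposited table. Its estimated means were 1248 in ev and 3710 in div1. The 95% intervals of the 2 genes, 1.43 to 2.29 and 1.21 to 1.94, overlap, so these data do not order them. Between them in the row lie UGT85A5 and UGT85A3, and beyond UGT85A2 lies UGT85A7, and none of these 3 had a row.

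Another group of calls came from the UGT73C row on chromosome 2. AT2G36780 (15417364 to 15419391, minus strand) had a log2 change of 1.07 with a small error (SE 0.12, adjusted p 1.38e-15) per the authors' deposited table, which makes it number 119 of all called genes by p. Its estimated means were 807 in ev and 1693 in div1. The neighbouring AT2G36770 had a mean count of 6989 and a log2 change of 0.44 (SE 0.16, adjusted p 0.0380) per the authors' deposited table. The intervals of this near-identical pair, 0.82 to 1.31 and 0.13 to 0.75, do not overlap, although a split of shared reads could move both values and its part was not tested. UGT73C5 (AT2G36800, chromosome 2, 15423172 to 15425129), which inactivates brassinosteroids and detoxifies the fungal toxin deoxynivalenol, stood at 0.85 (SE 0.26, adjusted p 0.00918), by log2 change of the authors' deposited table. UGT73C6, its closest copy at 91.2% of coding bases and an enzyme of flavonol and brassinosteroid glucosylation, had no row, nor did UGT73C1 and UGT73C2.

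The UGT73B enzymes, known from stress, pathogen and redox responses, held 3 higher members of 5. These are too few to set against the 9.14% higher among all tested genes. UGT73B2 (AT4G34135, chromosome 4, 16345150 to 16347434), a flavonol glucosyltransferase, had a log2 change of 0.94 (SE 0.28, adjusted p 0.00672) per the authors' deposited table. UGT73B5 (AT2G15480) and UGT73B3 (AT4G34131) had log2 changes of 0.53 (SE 0.15, adjusted p 0.00492) and 0.39 (SE 0.14, adjusted p 0.0401) per the authors' deposited table. Mean normalized counts of the 3 genes were 3779, 7076 and 4439. UGT73B1 and UGT73B4 had no row. The coding sequences of UGT73B2 and UGT73B3 share 89.4% of bases, so their calls may not be fully separate. The annotated UGT73B5 gene, chromosome 2 from 6758430 to 6763501, contains the whole of UGT73B4 from 6761635 on the same strand, while its first transcript ends at 6760709, and the coding sequences share 91.5% of bases. Calls for this pair are therefore uncertain as to which gene the reads came from. UGT73B3 overlaps LEJ1 and a long non-coding RNA that run the other way, and the labels name an NEBNext Ultra II RNA kit without saying that strand was kept, so such reads cannot be told apart.

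**Figure D2:**
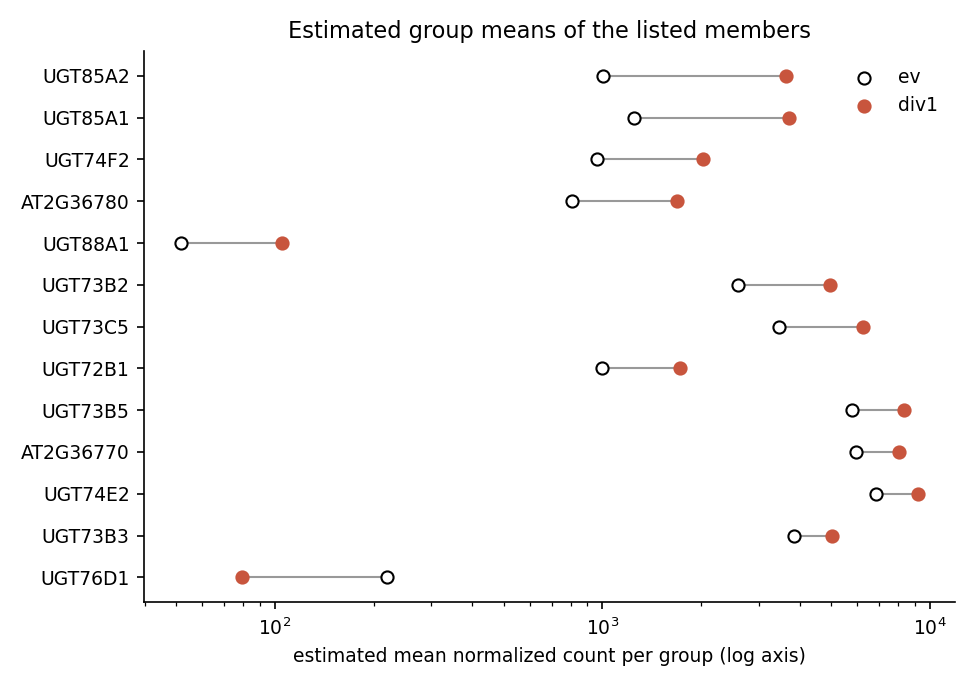
Estimated mean normalized count in ev (open circles) and div1 (red circles) for each listed member, on a log axis, in the order of the fold changes. UGT85A2 moves from 1006 to 3645, UGT74E2 from 6840 to 9195, and UGT76D1 from 220 to 79.4. The group means were computed from the deposited mean and fold change, and counts of different genes are not per length.

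Enzymes of salicylate and its relatives were called in opposite directions, 1 higher and 1 lower of 7 members (28.6% called). These are too few to set against the 16.4% of all tested genes. UGT74F2 (AT2G43820, chromosome 2, 18152078 to 18153908, plus strand), which forms the glucose ester and the glucoside of salicylate, had a log2 change of 1.07 (SE 0.20, adjusted p 3.59e-06) per the authors' deposited table. Its estimated means were 960.4 in ev and 2023 in div1. UGT76D1 (AT2G26480, chromosome 2, 11263889 to 11265855, plus strand), which glucosylates the dihydroxybenzoic acids made from salicylate, was the only listed member that fell, with a log2 change of -1.47 (SE 0.46, adjusted p 0.0125) per the authors' deposited table. Its mean normalized count was 150 and its interval ran from -2.38 to -0.57. Of the 7 members grouped here, the remaining 5 had no row: UGT74F1, the neighbour of UGT74F2 at 84.1% of coding bases, UGT75B1, UGT76B1, which conjugates isoleucic acid and salicylate, UGT71C3, which acts on methyl salicylate, and UGT89B1. UGT74F2 overlaps a transcribed pseudogene on the opposite strand.

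Most of the called genes on a list around salicylate synthesis and turnover were lower. The list also holds regulators, and not every gene on it makes or converts salicylate. Of 16 genes matched, 6 were lower, 2 higher and 8 had no row, against 7.28% lower and 9.14% higher among all tested genes. The 4 with the smallest adjusted p all fell: PBS3, which conjugates isochorismate to glutamate, at -1.52 (SE 0.16), EDS5, the plastid exporter of isochorismate, at -1.20 (SE 0.24), the regulator CBP60g at -0.81 (SE 0.17) and the isochorismate synthase ICS1 at -1.59 (SE 0.37), by log2 change of the authors' deposited table. The 2 higher genes, named after their values were seen, were DMR6, a salicylate hydroxylase, at 1.05 (SE 0.34) and the methyl esterase MES9 at 1.41 (SE 0.49), by log2 change of the authors' deposited table. EDS5 overlaps another annotated gene. UGT74F2 thus rose in the same libraries in which most called genes of this list fell.

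Of 6 members that act on flavonoids, 1 (16.7%) was called, near the 16.4% of all tested genes. UGT73B2, described above, was higher, and UGT78D1, UGT78D2 and UGT78D3, which attach rhamnose, glucose and arabinose to the 3-position of flavonols, had no row, nor did UGT73C6 and UGT71C1. Flavonoid synthesis held 0 higher and 1 lower of 19 genes by the authors' DESeq2 calls, which is 5.26% against 16.4% of all tested genes. That gene was MYB75, which activates anthocyanin synthesis, at -1.76 (SE 0.29, adjusted p 4.34e-08), by log2 change of the authors' deposited table. Unadjusted p-values of the 18 genes without a row are not in the table.

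Monolignol and hydroxycinnamate enzymes gave 1 call among 7, or 14.3%, which is near the 16.4% of all tested genes. UGT72B1 (AT4G01070, chromosome 4, 461513 to 463556, minus strand), which detoxifies chloroanilines and also glucosylates monolignols, had a log2 change of 0.79 (SE 0.17, adjusted p 1.17e-04) per the authors' deposited table, with estimated means of 995.1 in ev and 1722 in div1. UGT72E1, UGT72E2 and UGT72E3, which glucosylate coniferyl and sinapyl compounds, had no row. Nor did UGT84A1, UGT84A2 and UGT84A3, which make the glucose esters of sinapate and related acids. Of 20 genes of monolignol and sinapate ester synthesis around these enzymes, 5 were higher, 0 lower and 15 without a row, which is 25% against 9.14% higher among all tested genes. C4H, the cinnamate hydroxylase, stood at 1.57 (SE 0.15, adjusted p 5.64e-23), CYP98A3, the coumaroyl shikimate hydroxylase, at 0.79 (SE 0.23) and PAL1, the entry enzyme, at 0.84 (SE 0.28), by log2 change of the authors' deposited table. SNG1, the acyltransferase that moves sinapate from its glucose ester to malate, had a log2 change of 3.08 (SE 0.32, adjusted p 1.26e-19) per the authors' deposited table, while UGT84A2, which makes that ester, had no row. CYP98A3 overlaps other annotated genes.

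Auxin gave 1 call among 4 enzymes, too few to set against the 16.4% of all tested genes. UGT74E2 (AT1G05680, chromosome 1, 1703002 to 1704838, minus strand), which glucosylates indole-3-butyric acid and is induced by hydrogen peroxide, had a mean count of 8017 and a log2 change of 0.43 (SE 0.16, adjusted p 0.0418) per the authors' deposited table. Its neighbour AT1G05675, no member of the list, shares 89.5% of its coding bases and had no row. UGT74D1, UGT84B1 and IAGLU, which glucosylate indole-3-acetic acid or indole-3-butyric acid, had no row. Genes of the other route, auxin coupled to amino acids and its release, held 5 lower, 0 higher and 11 genes without a row among 16, so that 31.2% were called, against 16.4% of all tested genes. Of these, GH3.6, GH3.17 and GH3.2, which couple auxin to amino acids, stood at -0.99 (SE 0.21), -1.57 (SE 0.36) and -2.46 (SE 0.60), and IAR3, a hydrolase of auxin conjugates, at -0.65 (SE 0.19), by log2 change of the authors' deposited table.

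**Figure D3:**
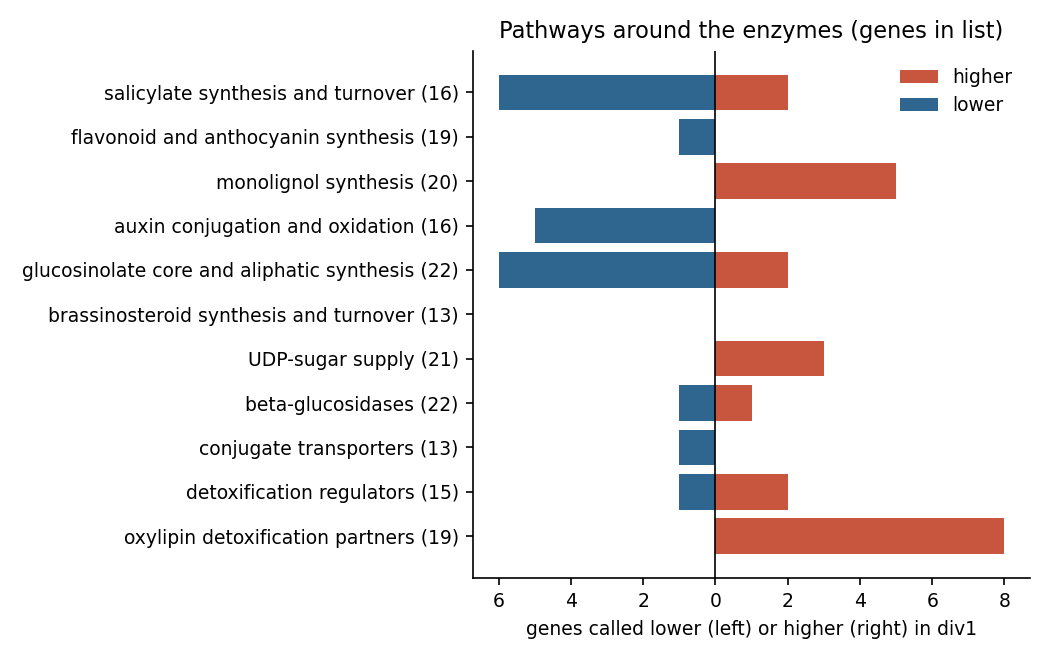
Genes called lower (blue, to the left) and higher (red, to the right) in div1 for each pathway list, with the number of genes in the list in brackets. The salicylate list has 6 lower and 2 higher, the auxin conjugation list 5 lower and 0 higher, the monolignol list 5 higher and 0 lower, and the oxylipin detoxification list 8 higher and 0 lower. Genes without a row are not drawn.

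Among glucosinolate enzymes UGT74B1, which adds the glucose of the glucosinolate core, had no row. Of 22 genes of the pathway around it, 6 were lower, 2 higher and 14 not listed, so that 36.4% were called, against 16.4% of all tested genes. CYP79B2 and CYP79B3, parallel enzymes of the first indole step, stood at -1.62 (SE 0.19) and 3.06 (SE 0.42), and the regulator MYB51 at -1.19 (SE 0.20) and GGP1 at -0.55 (SE 0.11), by log2 change of the authors' deposited table. Of members that act on other hormones, 2 of 7 (28.6%) were higher, namely UGT73C5 and UGT85A1. These are too few to set against the 9.14% higher among all tested genes. UGT71B6, which glucosylates abscisic acid, UGT76E1 and UGT76E2 had no row, nor did UGT73C1 and UGT73C6. Of 13 other genes of brassinosteroid synthesis or turnover, 0 were called by the authors' DESeq2 comparison, against 16.4% of all tested genes. This list leaves out the UGTs, such as UGT73C5, which was higher. A list of 13 is small, and the unadjusted p-values of its genes are not in the table.

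In the group of stress and xenobiotic enzymes, 3 of 9 (33.3%) were higher, against 9.14% of all tested genes, 0 lower and 6 not listed. UGT73B3, UGT73B5 and UGT72B1 were the higher ones, with values given above, and UGT76E11, UGT76E12 and UGT87A2 were among those with no row. The substrate groups overlap, and UGT72B1 was also counted among the monolignol enzymes, so these are not further calls. A list drawn up around reactive oxylipins and foreign compounds held 8 higher and 0 lower genes of 19, which is 42.1% against 9.14% of all tested genes. The list is broad, and a place in it does not show that a gene has that role. GSTF8, a glutathione transferase, stood at 1.63 (SE 0.17, adjusted p 4.11e-20), GSTU7 at 1.23 (SE 0.26), GSTU8 at 0.71 (SE 0.18) and CYP81D11 at 2.25 (SE 0.54), by log2 change of the authors' deposited table. GSTF8, GSTU7 and CYP81D11 overlap other annotated genes.

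UGT88A1 (AT3G16520, chromosome 3, 5618408 to 5620969, minus strand) completed the listed members. It had a log2 change of 1.02 (SE 0.37, adjusted p 0.0390) per the authors' deposited table and rests on a mean count of 78.2. Its interval, 0.29 to 1.75, was wide, as that of UGT76D1 was. Just inside the threshold of the table were 4 members with an adjusted p above 0.03, namely AT2G36770, UGT88A1, UGT73B3 and UGT74E2, whereas 8 members had an adjusted p under 0.01.

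**Figure D4:**
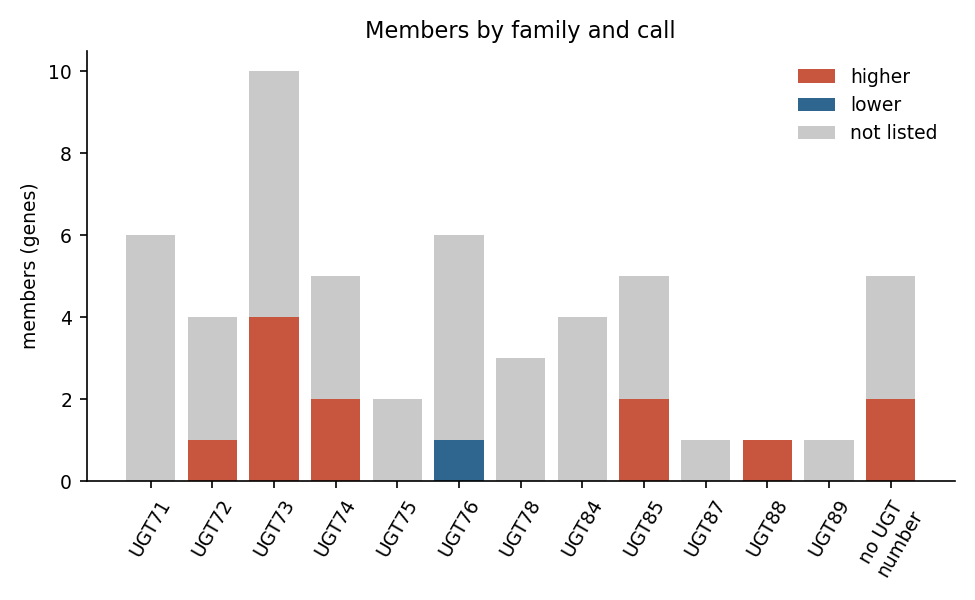
Number of members in each UGT family, stacked by call: higher in div1 (red), lower (blue) or without a row (grey). UGT73 has 4 of 10 higher, UGT85 has 2 of 5, UGT74 has 2 of 5, and UGT71 has 0 of 6. The last bar holds 5 members to which the annotation gives no UGT number.

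By family, calls are counts out of few members, beside 9.14% higher and 7.28% lower among all tested genes. UGT73, the largest of these families in the list, had 4 higher members of 10, to which the unnumbered AT2G36770 and AT2G36780 of the UGT73C row add 2. UGT74 and UGT85 had 2 of 5 each, UGT72 had 1 of 4, and the single UGT88 member was higher. UGT76 had 1 lower of 6. No call was made among 6 UGT71, 2 UGT75, 3 UGT78 and 4 UGT84 members or among the single UGT87 and UGT89 members by the authors' DESeq2 comparison. Their unadjusted p-values are not in the table. The remaining unnumbered members, IAGLU, AT2G31790 and AT2G22590, also had no row. These counts cover the list only, and UGT71B5, UGT73C7 and UGT76C2, outside it, were higher, as given below.

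Calls were also placed along the chromosomes. Of the 53 members, 34 lie in 13 rows of neighbours less than 10 kb apart, and 9 of those 34 (26.5%) were called. Of the 19 members elsewhere, 4 (21.1%) were called, and the share of all tested genes was 16.4%. Calls fell in 5 of the 13 rows, and 3 rows held more than 1 call: the UGT85A row with 2 of 5, the UGT73C row with 3 of 6 and the UGT73B row of chromosome 4 with 2 of 3. In each of these 3 rows every call was higher, and in none of the 13 rows was every member called. Neighbours without a row may have been untested, so these counts do not show that they kept their level.

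**Figure D5:**
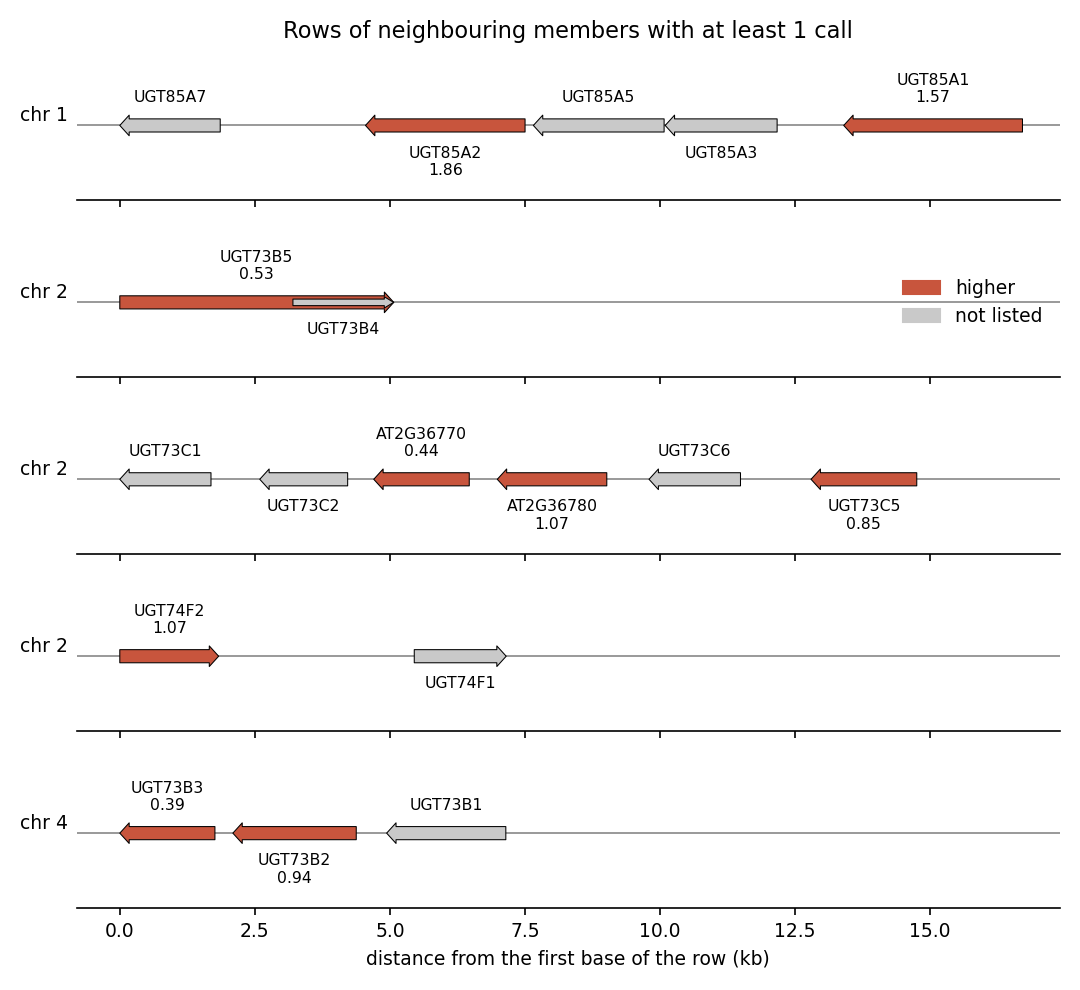
The 5 rows of neighbouring members with at least 1 call, drawn to scale in kb from the first base of each row, with arrows for the strand, red for higher and grey for no row, and the log2 fold change under the name of each called gene. Calls of 1.86 and 1.57 stand at separate places in the UGT85A row on chromosome 1. UGT73B4 is drawn inside UGT73B5, as annotated.

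The bases before the annotated gene start were read from TAIR10.1 for the 4 higher members with the smallest adjusted p, and for UGT72B1 and UGT88A1, the higher members that hold a searched motif. Searched in the 300 bases before each such start, on both strands, were GATAAG, the I-box word bound by DIVARICATA-type proteins of snapdragon, and TATCCA, bound by related MYB proteins of rice. Read on the other strand TATCCA is TGGATA, which shares GATA with the first motif, so the matches can overlap. Sequences run 5′ to 3′ toward the gene, with motif matches in capitals, and the window of UGT85A2 is given only up to the end of its neighbour UGT85A5, 153 bases.
UGT85A2, chr1:7897762-7897914, minus strand: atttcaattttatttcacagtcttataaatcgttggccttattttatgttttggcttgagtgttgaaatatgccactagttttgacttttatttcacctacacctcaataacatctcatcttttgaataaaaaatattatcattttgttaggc
UGT85A1, chr1:7906970-7907269, minus strand: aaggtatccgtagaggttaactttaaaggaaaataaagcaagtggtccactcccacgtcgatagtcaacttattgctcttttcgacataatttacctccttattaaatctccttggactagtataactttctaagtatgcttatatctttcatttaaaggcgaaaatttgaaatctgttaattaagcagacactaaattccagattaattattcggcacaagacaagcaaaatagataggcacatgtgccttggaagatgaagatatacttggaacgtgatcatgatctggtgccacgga
AT2G36780, chr2:15419392-15419691, minus strand: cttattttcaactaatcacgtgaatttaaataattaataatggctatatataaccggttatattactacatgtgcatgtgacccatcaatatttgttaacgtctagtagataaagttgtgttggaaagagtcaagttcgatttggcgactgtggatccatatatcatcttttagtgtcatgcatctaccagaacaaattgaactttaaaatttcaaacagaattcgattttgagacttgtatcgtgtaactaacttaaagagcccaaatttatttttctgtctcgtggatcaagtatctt
UGT74F2, chr2:18151778-18152077, plus strand: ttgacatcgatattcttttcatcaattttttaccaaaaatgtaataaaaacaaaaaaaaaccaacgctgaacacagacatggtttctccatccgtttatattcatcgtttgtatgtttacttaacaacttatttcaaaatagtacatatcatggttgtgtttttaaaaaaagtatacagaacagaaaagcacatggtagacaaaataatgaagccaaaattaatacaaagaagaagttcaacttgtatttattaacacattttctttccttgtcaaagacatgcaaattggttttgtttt
UGT72B1, chr4:463557-463856, minus strand: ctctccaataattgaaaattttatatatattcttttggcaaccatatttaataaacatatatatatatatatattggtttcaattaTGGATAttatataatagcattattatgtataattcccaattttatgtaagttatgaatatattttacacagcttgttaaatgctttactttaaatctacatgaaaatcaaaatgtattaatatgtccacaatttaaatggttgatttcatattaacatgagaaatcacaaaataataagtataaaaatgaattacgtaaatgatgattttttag
UGT88A1, chr3:5620970-5621269, minus strand: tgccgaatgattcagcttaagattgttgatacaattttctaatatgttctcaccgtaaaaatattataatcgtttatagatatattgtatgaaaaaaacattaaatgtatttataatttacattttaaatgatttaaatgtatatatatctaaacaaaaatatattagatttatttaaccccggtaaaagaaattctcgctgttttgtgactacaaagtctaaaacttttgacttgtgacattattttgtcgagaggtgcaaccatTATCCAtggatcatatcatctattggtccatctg
GATAAG was found before 0 of the 12 higher members, before 6 of the 40 members without a row, and before 14.5% of 27443 protein-coding genes. Among all genes called higher the share was 21.1%, and among those called lower 10.5%. TATCCA was found before 2 of the 12 higher members, UGT72B1 and UGT88A1, before 9 of the 40 without a row, and before 16.2% of all protein-coding genes. Its share was 21.7% among genes called higher and 12.8% among genes called lower. The absence of these letters from a 300-base window says nothing about binding elsewhere.

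Genes of the same fold outside the list held 8 calls. The annotation holds 65 other genes with the UGT domain, of which 6 were higher, 2 lower and 57 without a row. That is 12.3% called, against 24.5% of the 53 members and 16.4% of all tested genes. The 65 genes may include untested ones, so 12.3% cannot be read as below the share of tested genes. Over all 118 genes of the fold, 18 were higher and 3 lower, or 17.8% called. The higher ones were UGT73C7 at 1.58 (SE 0.35), AT2G36970 at 1.38 (SE 0.32), AT5G49690 at 1.03 (SE 0.20), AT4G15260 at 0.94 (SE 0.14), UGT71B5 at 0.65 (SE 0.23) and UGT76C2, a cytokinin N-glucosyltransferase, at 0.38 (SE 0.14), by log2 change of the authors' deposited table. The lower ones were AT3G46680 at -0.86 (SE 0.19) and AT3G46700 at -0.94 (SE 0.32), by log2 change of the authors' deposited table. On chromosome 3, AT3G46680 lies beside UGT76E11, and AT3G46690 lies between the lower genes. UGT76E11 and AT3G46690 had no row. AT3G46680 and AT5G49690 overlap other annotated genes.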

How the data were processed

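RNA of 8 libraries was compared in 2 groups taken from the sample titles. Per the submitters' processing notes, fastp 0.21.0, HISAT2, featureCounts 2.0.1 and DESeq2 were used with TAIR10. Their settings are not stated in the sources used here. Per the file headers, the deposited table holds the authors' averaged signal (mean normalized count), log2 ratio with standard error, test score and p-values. It lists called genes only (largest adjusted p 0.0499), with 0 columns of values per library, so no test was refitted and the plan for such a table was followed.

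The number of genes tested came from adjusted p times rank over p at the last rank, checked on simulated data. Estimated group means follow from mean and fold change, assuming 4 libraries each, and intervals are 95%. Names, coordinates, overlaps and sequences came from RefSeq's TAIR10.1, which matched 2957 identifiers. It keeps the nuclear sequence of TAIR10. Family genes outside the list were found by their InterPro UGT domain. Coding identity came from global alignments (Biopython 1.88). Python 3.11.15, pandas 2.3.3 and matplotlib 3.10.9 were used.

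Members, substrate groups and pathway lists were chosen with earlier results of these data known. Every listed member, every listed gene of the fold outside the list, and up to 4 genes per pathway list by adjusted p are named. Names missing from the annotation were left out (2 of the substrate grouping). Alternatives were stricter thresholds, count filters, and leaving out overlapping or near-identical members.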

Additional observations from a re-analysis of the deposited data

How the results depend on the processing

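The 12 higher members became 8 at an adjusted p under 0.01 (15.1% of members against 6.39% of all tested genes), 5 at an adjusted p under 0.001 (9.43% against 4.21%) and 5 at a change of at least 2-fold. Leaving out members with a coding sequence at least 85% identical to another UGT, an alternative chosen after seeing the data in place of the planned protein identity, left 5 higher (14.3% of the remaining 35, against 9.14% of all tested genes) and 1 lower. A mean count of at least 50 left 12 higher and one of at least 200 left 11. Mean counts of members without a row are unknown, so no share is given for these filters. Leaving out members that overlap another annotated gene left 9 higher of 34 (26.5%, against 22.6% of all 53 members and 9.14% of all tested genes). The 1 lower member, UGT76D1, was lost at an adjusted p under 0.01 or 0.001 and at a mean count of at least 200. That left 0 lower by the authors' DESeq2 calls. The unadjusted p of UGT76D1 in that DESeq2 comparison was 0.0014, and those of members without a row are unknown. The median log2 change of higher members lay between 0.85 and 1.07 in these settings, against 0.89. Fewer members in each setting follow from its construction.

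Other normalizations, left-out libraries and a replicate block need values per library and were not run. No paired analysis was possible because the table carries no values per library. Low counts and wide intervals limit UGT88A1 and UGT76D1, and the depth of each library is unknown.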

Other observations

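Supply and release of the sugar were also looked at. Of 21 genes that make UDP-glucose and related donors, 3 were higher, 0 lower and 18 without a row, which is 14.3% called against 16.4% of all tested genes. They were UGE1 at 1.03 (SE 0.20) and UGE3 at 1.20 (SE 0.29), epimerases between UDP-glucose and UDP-galactose, and UGP2, which makes UDP-glucose, at 0.73 (SE 0.24), by log2 change of the authors' deposited table. Of 22 beta-glucosidases, which split such conjugates, 1 was higher and 1 lower, or 9.09% called: BGLU45, which acts on monolignol glucosides, at 1.66 (SE 0.42) and BGLU18, which hydrolyses glucosylated abscisic acid, at -3.09 (SE 0.89), by log2 change of the authors' deposited table. Of 13 transporters of conjugates (7.69% called), the flavonoid carrier DTX35 was lower, at -0.62 (SE 0.22), by log2 change of the authors' deposited table. Among 15 regulators of detoxification (20% called), ATAF1 at 0.67 (SE 0.14) and TGA4 at 0.56 (SE 0.16) were higher and ANAC053 at -0.50 (SE 0.18) was lower, by log2 change of the authors' deposited table. These shares stand beside the same 16.4% of all tested genes. UGE1, UGE3, BGLU45, DTX35, TGA4 and ATAF1 overlap other annotated genes.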
